A study of Mus musculus with 10 samples.

Results

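The Sox family genes described here are 9 transcription factor genes of the mouse neocortex, Sox1, Sox2, Sox3, Sox4, Sox6, Sox9, Sox11, Sox12 and Sox21. They were taken as the rows of a table of ribosome footprint counts whose Ensembl identifiers carry these symbols, and they are 9 of the 22373 genes in that table. Ribo-seq counts the short pieces of mRNA that ribosomes protect from nuclease, so a count follows both the amount of an mRNA and the number of ribosomes on it. Neocortex of wild-type CD-1 mice was dissected at the embryonic stages E12.5, E14, E15.5 and E17 and on the day of birth (P0), digested with RNAse-T1 and RNAse-A, and sequenced as 2 libraries per stage, 10 in all. Each library pooled the brains of many animals of both sexes, no group carried an allele or a treatment, and the groups were defined by stage, with more brains in the pools of the earlier stages.

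Sox proteins bind DNA through a shared HMG box and are sorted into subgroups by the similarity of that box. The SoxB1 proteins (Sox1, Sox2, Sox3) are known for keeping neural progenitors undifferentiated, and Sox21, of SoxB2, opposes them. The SoxC proteins (Sox4, Sox11, Sox12) are known for switching on neuronal genes in newly born neurons. Sox6 (SoxD) acts in cortical progenitors and in interneurons that migrate in from the ganglionic eminence, and Sox9 (SoxE) acts in neural stem cells and in the onset of gliogenesis.

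Footprints of the 9 genes did not all move in the same direction across the stages. Sox1, Sox2, Sox3, Sox21, Sox6 and Sox9 were lower at P0 than at E12.5, by 2.20-fold for Sox1 up to 13.7-fold for Sox3. Sox4 and Sox11 rose 2.51-fold and 2.17-fold to a peak at E15.5 and then fell. Sox12 rose 1.75-fold between E12.5 and P0. All 9 genes passed the filter on low counts (at least 32 footprints summed over the libraries of a stage), which 13484 genes of the table passed, and all 9 differed among the 5 stages by the F test of limma-voom at an adjusted p under 0.05, where 63.8% of all genes tested did.

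Levels are in CPM, footprints scaled to a common library size by TMM factors, and they are not compared between genes, since longer coding sequences give more footprints. A fold change is the fitted difference of log2 CPM between stages with its standard error (SE), and a gene was called where the adjusted p was under 0.05 and the log2 change at least 0.32 in either direction. Library totals ran from 7544404 to 36129988 footprints. The shallowest was replicate 1 of P0, and the SD of the log2 ratio between replicates, taken on 4559 genes whose mean count reached 500, was 0.53 at P0 against 0.13 to 0.22 at the other stages. Results at P0 are therefore also given with each P0 library left out. The summed level of 8 neocortex marker genes (Emx1, Emx2, Pax6, Eomes, Neurod2, Neurod6, Tbr1, Bcl11b) was 455 to 747 CPM over the libraries. It was not compared with another tissue. From E12.5 to P0, 2 of the 8 were called higher and 4 lower (4 and 4 with total counts only), where 30.1% and 32% of all genes tested were. Since whole tissue was lysed, fewer cells of a type and less RNA or fewer ribosomes per cell cannot be told apart. Footprints from the conserved HMG box may align to several Sox genes, and how such reads were shared out in the table was not given in the sources used here.

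**Figure D1:**
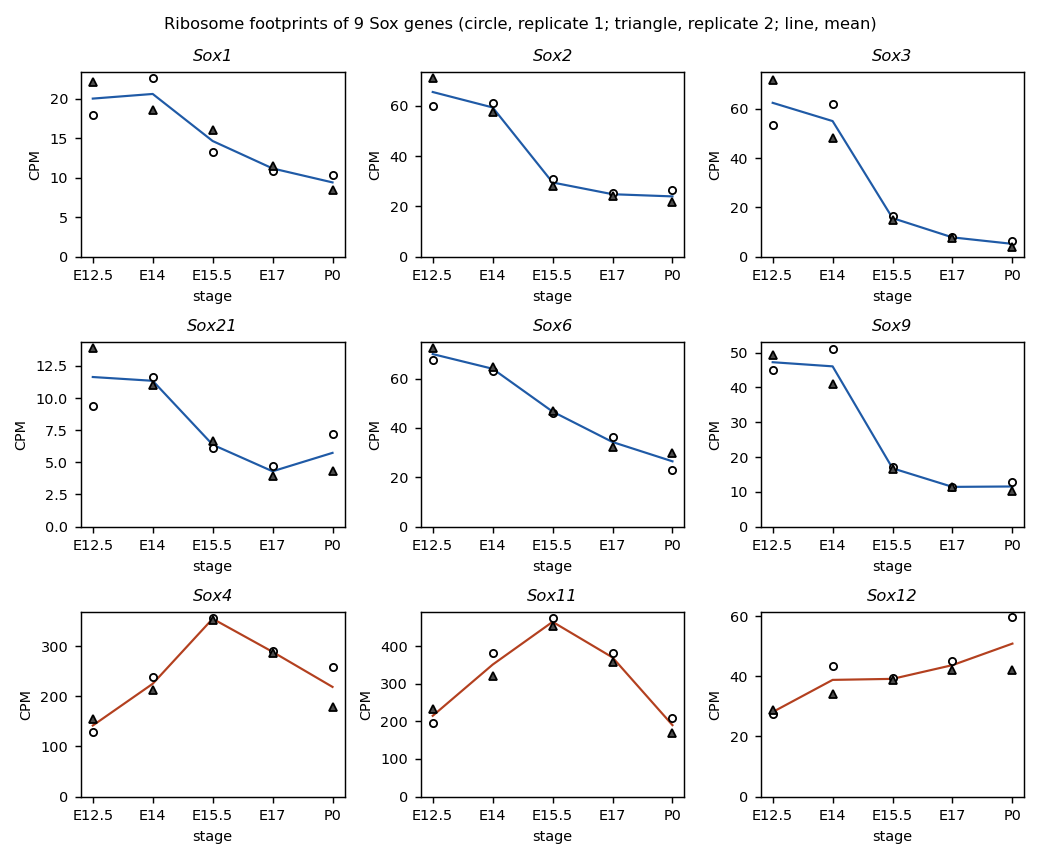
CPM of each of the 9 Sox genes (y axis, from 0) against stage (x axis), with replicate 1 as circles, replicate 2 as triangles and the line through the mean of the 2 libraries. The blue genes stand lower at E15.5 than at E14 in both libraries, while Sox4 and Sox11 (red) peak at E15.5 and Sox12 (red) has its highest mean at P0.

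RefSeq (GRCm38.p6) gave promoter sequence for 7 of the 9 genes. Sox3 and Sox9 had no entry. The 250 bases before the annotated start are given here for the SoxC genes, which rose, beside Sox2, a SoxB1 gene that fell, so that their makeup can be read side by side. Capitals mark matches on either strand to 6 short motifs. They are the GC box that Sp factors bind, spelled GGGCGG, the box of the NF-Y factor, spelled CCAAT, and the TATA box, here taken as TATAAA. The letters that Sox HMG boxes favour were searched as ACAATG and, in a second spelling, as ACAAAG. The octamer that POU factors bind was searched as ATGCAAAT. Sox2 lies at chr3:34649745-34649994 on the plus strand, Sox4 at chr13:28953700-28953949, Sox11 at chr12:27342719-27342968 and Sox12 at chr2:152398047-152398296, all on the minus strand.
Sox2: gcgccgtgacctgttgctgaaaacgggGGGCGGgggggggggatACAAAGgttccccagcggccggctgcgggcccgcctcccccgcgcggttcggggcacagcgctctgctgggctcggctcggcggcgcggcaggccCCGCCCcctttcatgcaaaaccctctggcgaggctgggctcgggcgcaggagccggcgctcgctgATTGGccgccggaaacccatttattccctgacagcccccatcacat
Sox4: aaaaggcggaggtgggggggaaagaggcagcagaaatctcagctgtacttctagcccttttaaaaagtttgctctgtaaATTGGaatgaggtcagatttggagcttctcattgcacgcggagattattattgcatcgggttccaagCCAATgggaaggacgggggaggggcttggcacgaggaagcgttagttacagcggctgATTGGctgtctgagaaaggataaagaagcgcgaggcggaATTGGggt
Sox11: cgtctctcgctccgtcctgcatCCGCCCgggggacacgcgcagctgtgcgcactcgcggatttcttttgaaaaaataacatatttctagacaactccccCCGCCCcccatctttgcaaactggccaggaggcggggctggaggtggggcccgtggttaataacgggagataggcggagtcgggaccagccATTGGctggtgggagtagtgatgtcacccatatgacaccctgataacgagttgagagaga
Sox12: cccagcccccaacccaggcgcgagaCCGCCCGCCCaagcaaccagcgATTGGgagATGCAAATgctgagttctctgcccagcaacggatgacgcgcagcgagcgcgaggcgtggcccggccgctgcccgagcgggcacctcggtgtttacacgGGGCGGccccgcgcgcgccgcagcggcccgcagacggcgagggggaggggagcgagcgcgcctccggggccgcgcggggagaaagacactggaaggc
The Sox4 window held 4 CCAAT matches and no GC box. The Sox11 window held 2 GC boxes and 1 CCAAT match, the Sox12 window 3 GC boxes (of which 2 overlap), 1 CCAAT match and 1 octamer, and the Sox2 window 2 GC boxes, 1 CCAAT match and 1 ACAAAG. Among the 32851 mouse promoter windows of the same length, 32.7% held the GC box, 33.8% the CCAAT box, 16.5% held ACAAAG and 1.6% the octamer. The share with the TATA box was 12.4% and that with ACAATG 10.7%, and none of these 4 windows held either. G and C made up 72% of the Sox2 window, 74.4% of Sox12, 58% of Sox11 and 50.8% of Sox4, against a median of 52.4% over all windows. The letters are a description of the windows and were not tied to the footprint levels. In RefSeq, Sox1, Sox2 and Sox4 lie inside the longer noncoding genes Sox1ot, Sox2ot and Gm46405, none of which is a row of the count table.

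Among the SoxB1 genes, Sox3 lost the most footprints. Sox3 stood at 53.3 and 71.6 CPM in the E12.5 libraries and at 62.1 and 48.0 for E14. It then stood at 16.6 and 14.7 CPM at E15.5, at 8.07 and 7.55 for E17, and at 6.53 and 3.82 for P0. The E12.5 and E14 libraries overlapped, and from E14 on each later stage lay below the one before with no overlap. Sox3 fell by 1.80 log2 units between E14 and E15.5 (SE 0.22, adjusted p = 0.000534) and by 1.00 between E15.5 and E17 (SE 0.24, adjusted p = 0.0389). From E12.5 to P0 it fell by 3.78 (SE 0.26, adjusted p = 6.26e-06), with -4.02 and -3.21 when P0 replicate 1 or 2 was left out. The call from E15.5 to E17 was lost when any library of E14, E15.5 or E17 was left out, with values from -1.09 to -0.91 and adjusted p from 0.0549 to 0.246.

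Sox2, the best known stem cell factor of the family, had most of its fall in a single interval. It stood at 60.0 and 71.0 CPM for E12.5, 61.0 and 57.7 for E14, 30.9 and 28.0 for E15.5, 25.4 and 24.3 for E17, and 26.3 and 21.6 for P0. The libraries of E12.5 and E14 overlapped, as did those of E17 and P0. E15.5 lay above E17 without overlap, and the widest gap lay between E14 and E15.5. There Sox2 fell by 1.01 log2 units (SE 0.13, adjusted p = 0.000662), a 2.01-fold drop. Between E15.5 and P0 the log2 difference was -0.33 (SE 0.14, adjusted p = 0.0932), which did not pass the test. From E12.5 to P0 Sox2 fell by 1.48 (SE 0.13, adjusted p = 2.91e-05), with -1.60 and -1.28 without P0 replicate 1 and 2.

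Sox1 had the shallowest fall of the SoxB1 genes. Its levels were 17.9 and 22.1 CPM for E12.5, 22.7 and 18.5 for E14, 13.3 and 16.0 for E15.5, 10.8 and 11.5 for E17, and 10.3 and 8.45 for P0. The stages from E15.5 on did not overlap with the earlier ones, and the spread within a stage was wide beside the steps. Sox1 fell by 1.14 log2 units from E12.5 to P0 (SE 0.18, adjusted p = 0.000663), and this call held in all 18 alternatives. The step from E14 to E15.5 was -0.49 (SE 0.16, adjusted p = 0.0457), and it was lost without any library of E14, E15.5 or E17, with values from -0.65 to -0.35 and adjusted p from 0.0534 to 0.271, and also with DESeq2 (adjusted p = 0.0608) and with no filter (adjusted p = 0.0677). From E15.5 to P0 Sox1 fell by 0.68 (SE 0.18, adjusted p = 0.0203), a call lost without E15.5 replicate 2 (-0.54) and without P0 replicate 2 (-0.46). Total counts only, sample quality weights and only the 2 stages compared also ended that call (adjusted p from 0.0502 to 0.191).

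Sox21, the SoxB2 gene, had 66 to 371 counts per library, fewer than any other of the 9 up to E17, while Sox3 had fewer in both P0 libraries. It stood at 9.41 and 13.9 CPM for E12.5, 11.7 and 11.0 for E14, 6.12 and 6.63 for E15.5, 4.70 and 3.90 for E17, and 7.18 and 4.30 for P0. The later 3 stages lay below the earlier ones in every library, and the P0 libraries spanned those of E15.5 and overlapped those of E17. Sox21 fell by 0.83 log2 units from E14 to E15.5 (SE 0.23, adjusted p = 0.0244) and by 1.19 from E12.5 to P0 (SE 0.25, adjusted p = 0.00347). The first call was lost without any library of E14 or E15.5 (-0.88 to -0.77, adjusted p from 0.0864 to 0.135), and the second without P0 replicate 2 (-0.65, adjusted p = 0.0726).

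Sox9, the SoxE stem cell factor, moved much as Sox2 did, with a larger drop. It stood at 45.0 and 49.5 CPM for E12.5, 51.1 and 41.1 for E14, 17.1 and 16.4 for E15.5, 11.3 and 11.5 for E17, and 12.7 and 10.3 for P0. The 4 earliest libraries all held 41.1 CPM or more and the 6 later ones 17.1 or less. Sox9 fell by 1.45 log2 units from E14 to E15.5 (SE 0.14, adjusted p = 0.000201), a 2.72-fold drop, and by 2.08 from E12.5 to P0 (SE 0.15, adjusted p = 7.91e-06). Both calls held in all 18 alternatives, and the second was -2.19 and -1.86 without P0 replicate 1 and 2. From E15.5 to P0 Sox9 fell by 0.58 (SE 0.15, adjusted p = 0.0187), a call lost without either E15.5 library (-0.55 and -0.61) and without P0 replicate 2 (-0.37). Total counts only, sample quality weights and only the 2 stages compared also ended that call (adjusted p from 0.0604 to 0.143).

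Sox6, the SoxD gene, declined by smaller steps over the whole series. Its levels were 67.4 and 72.4 CPM for E12.5, 63.1 and 64.8 for E14, 46.2 and 47.0 for E15.5, 36.3 and 32.3 for E17, and 22.9 and 29.9 for P0. No pair of neighbouring stages overlapped. Sox6 fell by 0.46 log2 units from E14 to E15.5 (SE 0.13, adjusted p = 0.0228), by 0.80 from E15.5 to P0 (SE 0.13, adjusted p = 0.00271) and by 1.38 from E12.5 to P0 (SE 0.13, adjusted p = 4.21e-05). The first of these was lost without any library of E14 or E15.5 (-0.48 to -0.44, adjusted p from 0.0777 to 0.117), and the last was -1.22 and -1.57 without P0 replicate 1 and 2. Over the same stages the summed level of 12 ganglionic eminence and interneuron markers, cells in which Sox6 is also made, moved the other way, from 20.1 to 21.5 CPM at E12.5 to 171 to 181 for P0. Of the 11 markers tested, 9 rose and 1 fell (Sp8), where 30.1% and 32% of all genes did. With total counts only, 10 rose and 0 fell. Gsx2, at 0 CPM at E12.5, passed the filter only through later stages. Lhx8, which was not tested, was at 0 in both libraries of 4 stages. The part of such cells in the Sox6 values was not tested.

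The SoxC genes Sox4 and Sox11 rose while the SoxB1 genes fell. Sox4 stood at 128 and 155 CPM for E12.5, 238 and 212 for E14, 357 and 352 for E15.5, 290 and 287 for E17, and 258 and 179 for P0. Each stage up to E15.5 lay above the one before without overlap, and each later stage lay below. Sox4 rose by 1.33 log2 units from E12.5 to E15.5 (SE 0.17, adjusted p = 0.000386), in all 18 alternatives, and fell by 0.73 from E15.5 to P0 (SE 0.17, adjusted p = 0.0121). It was still higher at P0 than at E12.5, by 0.60 (SE 0.17, adjusted p = 0.0144). The interval from E14 to E15.5 took a rise of 0.66 (SE 0.17, adjusted p = 0.0164).

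The Sox4 values at P0 depended on the library. The difference between E12.5 and P0 was 0.35 without P0 replicate 1 (adjusted p = 0.0292) and 0.90 without P0 replicate 2 (adjusted p = 0.000381), and without E12.5 replicate 1 the call was lost (0.46, adjusted p = 0.0948). The fall from E15.5 was -0.98 and -0.43 when P0 replicate 1 or 2 was left out. That call was lost without either E15.5 library (-0.72 and -0.73, adjusted p = 0.073 and 0.0667), and the rise from E14 was lost without E14 replicate 2 (0.57, adjusted p = 0.107), E15.5 replicate 1 (0.65, adjusted p = 0.0847) or E15.5 replicate 2 (0.67, adjusted p = 0.0813).

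Sox11 followed Sox4 up and then fell further. It stood at 196 and 233 CPM for E12.5, 382 and 320 for E14, 476 and 454 for E15.5, 381 and 359 for E17, and 210 and 170 for P0. The P0 libraries overlapped with those of E12.5 and lay far below those of E17. Sox11 rose by 1.12 log2 units from E12.5 to E15.5 (SE 0.14, adjusted p = 0.000366) and fell by 1.30 from E15.5 to P0 (SE 0.14, adjusted p = 0.00041), both in all 18 alternatives. From E17 to P0 it fell by 0.97 (SE 0.14, adjusted p = 0.00378), a 1.96-fold drop, with -1.12 and -0.79 without P0 replicate 1 and 2. Between E12.5 and P0 the log2 difference was -0.19 (SE 0.14, adjusted p = 0.277). This small value changed sign with total counts as the only scaling (0.34) and without P0 replicate 2 (0.0026).

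Sox12, the third SoxC gene, had no peak at E15.5. Its levels were 27.3 and 28.9 CPM for E12.5, 43.6 and 34.1 for E14, 39.5 and 38.8 for E15.5, 45.3 and 42.2 for E17, and 59.8 and 42.0 for P0. The E12.5 libraries lay below all others, and those of E14 and E15.5 overlapped, as did those of E17 and P0. Sox12 rose by 0.81 log2 units from E12.5 to P0 (SE 0.18, adjusted p = 0.00455), in all 18 alternatives, with 0.58 and 1.12 without P0 replicate 1 and 2. None of the 4 steps between neighbouring stages passed the test (log2 0.03 to 0.45).

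**Figure D2:**
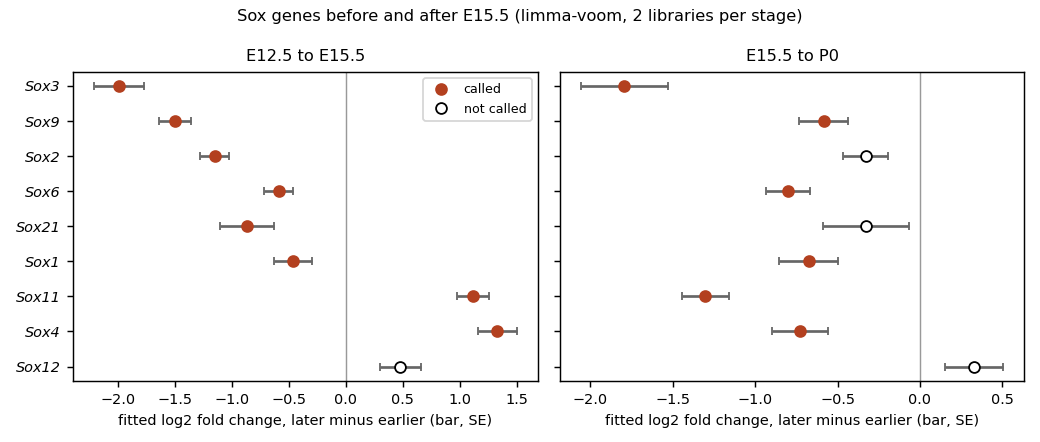
Fitted log2 fold change (x axis, later minus earlier stage, bar = SE, 2 libraries per stage) of the 9 Sox genes (y axis) from E12.5 to E15.5 (left) and from E15.5 to P0 (right), with called genes filled. Sox4 and Sox11 lie at 1.33 and 1.12 on the left and at -0.73 and -1.30 on the right, while Sox3 lies at -1.99 and -1.79.

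By interval, the calls among the 9 genes came unevenly. From E12.5 to E14, 0 of 9 were called by limma-voom, where 0.638% of all genes tested were. An unadjusted p under 0.05 was reached by 3 (Sox4, Sox11 and Sox12, log2 0.67, 0.71 and 0.45, each higher at E14 in both libraries), edgeR's quasi-likelihood test called 0 and DESeq2 called 2 (Sox4 and Sox11). From E14 to E15.5, 7 of 9 were called, against 36.1% of all genes. Sox4 was the 1 called higher (16.5% of all genes were) and Sox1, Sox2, Sox3, Sox6, Sox9 and Sox21 were the 6 called lower (19.6%), while Sox11 just missed the threshold (log2 0.41, SE 0.14, adjusted p = 0.0521). With total counts as the only scaling, where the median of all genes was 0.29 against -0.01 with TMM scaling, Sox1 and Sox6 lost that call (-0.20 and -0.16, adjusted p = 0.331 and 0.279) and so did Sox21 (-0.54, adjusted p = 0.0855). Without any library of E14 or E15.5, 3 or 4 of the 9 were called, and Sox2, Sox3 and Sox9 were among them each time.

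From E15.5 to E17, 1 of 9 was called, Sox3, which was lower, against 9.04% of all genes called and 3.43% called lower. Sox6 and Sox9 joined it, also lower, when either P0 library was left out. From E17 to P0, 1 of 9 was called, Sox11, which was lower, against 20.5% called and 11.1% called lower. That count was 3 without P0 replicate 1 (Sox3, Sox4 and Sox11, all lower) and 3 without P0 replicate 2 (Sox6 and Sox11 lower, Sox12 higher). Over the longer spans, 8 of 9 were called from E12.5 to E15.5 (46.2% of all genes), 2 higher (22.2%) and 6 lower (24%). Of the 6, Sox1 (-0.46, adjusted p = 0.0494) lost that call without E12.5 replicate 2 or any library of E14, E15.5 or E17 (-0.58 to -0.31, adjusted p from 0.052 to 0.28), and Sox21 (-0.86, adjusted p = 0.0173) without E12.5 replicate 2 or either E15.5 library (-0.91 to -0.57, adjusted p from 0.0621 to 0.133). From E15.5 to P0, 6 of 9 were called (34% of all genes), all lower (17%), namely Sox1, Sox3, Sox4, Sox6, Sox9 and Sox11, and without E15.5 replicate 2 the count was 3. Leaving out P0 replicate 1 added Sox2, and leaving out P0 replicate 2 gave 5, with Sox3, Sox4, Sox6 and Sox11 lower and Sox12 higher. From E12.5 to P0, 8 of 9 were called (62.1%), Sox4 and Sox12 higher (30.1%) and Sox1, Sox2, Sox3, Sox6, Sox9 and Sox21 lower (32%). The last set was the same 8 genes without P0 replicate 1, and 7 without P0 replicate 2, which lost Sox21.

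Ratios of counts within a library do not depend on how libraries are scaled, and they put the shift between subgroups in numbers. Summed footprints of Sox4, Sox11 and Sox12 were 2.68 and 2.53 times those of Sox1, Sox2 and Sox3 in the E12.5 libraries and 4.56 times in both E14 libraries. At E15.5 the ratio was 14.4 in both libraries, at E17 it was 16.2 and 15.9, and at P0 12.2 and 11.6. Replicates differed far less than stages, and no neighbouring stages overlapped. The SoxC genes made up 58.2% and 58.1% of the footprints of the 9 genes at E12.5 and 87.0% and 86.8% at E15.5. With 2 libraries against 2, an exact permutation test of a ratio cannot go below p = 0.333, so these ratios stand as descriptions.

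Within subgroups the ratios moved as well. The counts of Sox3 over those of Sox2 were 0.89 and 1.01 at E12.5, 0.54 and 0.52 for E15.5, and 0.25 and 0.18 for P0, and it was lower in all 6 libraries from E15.5 on than in the 4 earlier ones. Sox4 over Sox11 was 0.65 and 0.66 at E12.5, 0.76 and 0.80 for E17, and 1.23 and 1.05 for P0. Sox12 over Sox11 went from 0.083 and 0.086 at E15.5 to 0.29 and 0.25 for P0. In the SoxE subgroup, Sox8 over Sox9 was 0.14 and 0.16 at E12.5, 0.60 and 0.53 for E15.5, and 1.26 and 1.47 for P0.

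**Figure D3:**
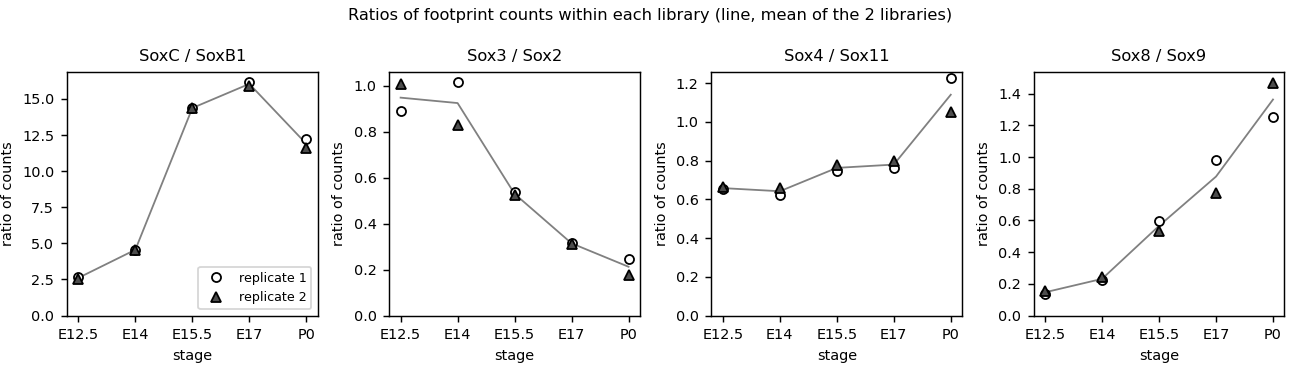
Ratio of footprint counts within each library (y axis, linear from 0) against stage (x axis) for SoxC over SoxB1 genes and for the gene pairs Sox3 and Sox2, Sox4 and Sox11, Sox8 and Sox9, with replicates as circles and triangles and the mean as a line. SoxC over SoxB1 steps from 4.56 at E14 to 14.4 at E15.5 in both libraries.

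Genes known to work with or downstream of the SoxB1 proteins were mostly lower by P0. Of 14 such genes, 9 fell and 4 rose from E12.5 to P0, where 32% of all genes tested were called lower and 30.1% higher, with a median log2 change of -2.50 against -0.01 over all genes tested. Those that fell included Pax6, a partner of Sox2 in the eye and brain (202 to 30.7 CPM, log2 -2.73, SE 0.11), Nes, the progenitor filament nestin (103 to 19.9 CPM, log2 -2.36, SE 0.11), and Notch1 (8.54 to 0.75 CPM, log2 -3.68, SE 0.24). The 4 that rose were the POU factors Pou3f1 (2.87 to 35.2 CPM, log2 3.51, SE 0.29), Pou3f2 and Pou3f3, which bind DNA beside Sox proteins and are also made in upper-layer neurons, and Fabp7, a lipid carrier of radial glia (969 to 1486 CPM, log2 0.59, SE 0.17). From E14 to E15.5, 9 of the 14 fell and 4 rose (8 and 5 with total counts only), against 19.6% and 16.5% of all genes.

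Of 10 SoxC target and newborn neuron genes, 6 rose (7 with total counts only) and 2 fell from E12.5 to P0 (30.1% and 32% of all genes), with a median log2 change of 1.41. Tubb3, the neuronal tubulin and a known Sox11 target, went from 737 to 3141 CPM (log2 2.10, SE 0.10), Dcx, the microtubule protein of migrating neurons, from 461 to 1368 CPM (log2 1.54, SE 0.16), and Stmn2 from 247 to 1495 CPM (log2 2.59, SE 0.13). Tead2, also a known SoxC target and a Hippo pathway factor of progenitors, fell from 58.3 to 4.50 CPM (log2 -4.05, SE 0.26), as did Neurod1, a proneural factor (log2 -1.58, SE 0.11). Sox4 and Sox11 fell after E15.5 while the summed level of these 10 genes was 6216 to 6471 CPM at E15.5 and 7973 to 9016 for P0. From E15.5 to P0, 4 of the 10 rose and 3 fell (17.1% and 17% of all genes).

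Of 8 SoxE partner and target genes, 3 rose and 4 fell from E12.5 to P0 (4 and 3 with total counts only), with a median log2 change of -0.15. With 30.1% of all genes called higher and 32% lower, these counts lay near the background. Nfia, which works with Sox9 at glial genes, fell from 335 to 127 CPM (log2 -1.40, SE 0.09) and Fgfr3, a receptor of progenitors and astrocytes, from 76.8 to 8.06 CPM (log2 -3.39, SE 0.19). Slc1a3, the glutamate transporter GLAST, rose from 27.9 to 45.0 CPM (log2 0.67, SE 0.12). Of 8 astrocyte markers, a cell type in which Sox9 is made, 6 rose and 2 fell over the same span. Their median log2 change over that span was 4.11, but at E12.5 several stood near 0. Gfap, Hepacam, Aqp4 and S100b were at 0.13, 0.14, 0.21 and 0 CPM. Aqp4 and S100b passed the filter only through P0 (2.11 and 1.08 CPM), so for them the filter favoured a rise. The summed level of the 8 markers was 265 to 267 CPM for E12.5, 149 to 156 at E15.5 and 181 to 197 for P0. Most of that sum was 1 gene, Aldoc, with a mean of 213 CPM at E12.5 and 112 at P0. Sox9 was not called from E17 to P0 (log2 -0.03, SE 0.15, adjusted p = 0.902).

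Markers of choroid plexus, meninges and blood vessels changed in the same interval in which 6 of the Sox genes fell. All 6 choroid plexus markers tested were called lower at E15.5 than at E14, where 19.6% of all genes tested were. The sum over all 8 genes of that list went from 1154 to 1160 CPM to 11.4 to 13.7. Slc4a5 and the untested Prlr were at 0 in both E15.5 libraries. Several of those tested, such as Kcne2 (34.6 CPM at E14, 0.41 at E15.5), passed the filter only through E12.5 or E14. For these the filter favoured a fall. All 7 meningeal fibroblast markers tested and all 8 endothelial markers (7 with total counts only) were also called lower, against the same 19.6%. The meningeal sum, over 8 genes, went from 78.9 to 89.9 CPM to 4.22 to 5.54. The endothelial sum went from 37.4 to 42.9 CPM to 11.7 to 14.3. The part of such tissue in the Sox values was not tested. From E12.5 to E14 the choroid plexus sum went from 284 to 344 CPM to 1154 to 1160, and the meningeal sum from 121 to 128 CPM to 78.9 to 89.9.

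**Figure D4:**
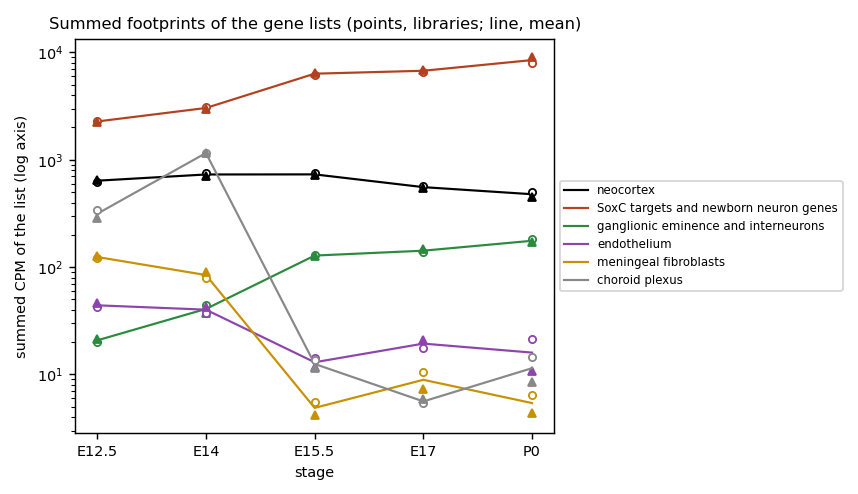
Summed CPM of 6 gene lists (y axis, log scale) against stage (x axis), with libraries as points (circle, replicate 1, triangle, replicate 2) and the mean as a line. Choroid plexus, meningeal and endothelial sums drop between E14 and E15.5, and the newborn neuron sum rises to 7973 and 9016 CPM at P0. The neocortex sum lies between 455 and 747 CPM, though its genes moved in both directions.

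The other 11 Sox genes of the table gave context for each subgroup, and 8 of them passed the filter. From E12.5 to P0, 2 rose (Sox8 and Sox10) and 5 fell (Sox5, Sox7, Sox13, Sox17 and Sox18), against 30.1% and 32% of all genes. With total counts only 3 were called lower, without Sox5 and Sox18, and edgeR's quasi-likelihood test and DESeq2 called neither Sox17 nor Sox18. Sox5, the SoxD partner of Sox6 and a factor of deep-layer neurons, stood at 129 and 124 CPM for E12.5, 186 and 174 for E15.5, and 80.3 and 92.8 for P0. It rose by 0.51 log2 units from E12.5 to E15.5 (SE 0.11, adjusted p = 0.00545) and fell by 1.05 from E15.5 to P0 (SE 0.11, adjusted p = 0.000348), unlike Sox6, which was lower at each stage. The rise was lost without E15.5 replicate 1 (0.46, adjusted p = 0.0501), and its lower level at P0 than at E12.5 (-0.54) was -0.01 with total counts as the only scaling. Sox13, the third SoxD gene, fell by 1.67 from E14 to E15.5 (8.22 and 8.11 CPM to 2.47 and 2.66, SE 0.13, adjusted p = 0.000107).

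Both SoxE relatives of Sox9 were higher at P0. Sox8 stood at 6.11 and 7.82 CPM at E12.5 and at 16.0 and 15.2 for P0, a rise of 1.15 log2 units (SE 0.17, adjusted p = 0.000542). Sox10, a gene of the oligodendrocyte lineage, stood at 0.55 and 1.23 CPM for E12.5, 0.98 and 1.31 for E17, and 3.92 and 3.51 for P0. From E17 to P0 it rose by 1.67 (SE 0.29, adjusted p = 0.00701). That call was lost without E17 replicate 1 (1.45, adjusted p = 0.0803). The summed level of 7 oligodendrocyte lineage markers was 61.4 to 76.3 CPM at E17 and 109 to 139 for P0, with 2 of the 5 tested called higher (9.46% of all genes) and 4 of 5 with total counts only or with DESeq2 size factors.

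The SoxF genes Sox7, Sox17 and Sox18, which act in blood vessels, were all lower at E15.5 than at E14. Sox7 went from 1.86 and 1.90 CPM to 0.63 and 0.68 (log2 -1.51, SE 0.22, adjusted p = 0.00123) and Sox17 from 3.84 and 2.79 to 1.45 and 1.10 (log2 -1.31, SE 0.36, adjusted p = 0.0224). Sox18 went from 3.05 and 3.17 CPM to 1.63 and 1.73 (log2 -0.89, SE 0.30, adjusted p = 0.0458). The Sox17 call was lost without E14 replicate 1 or either E15.5 library (-1.54 to -1.11, adjusted p from 0.0903 to 0.117), and the Sox18 call without any library of E12.5, E14, E15.5 or E17 (-0.93 to -0.84, adjusted p from 0.0677 to 0.207) and with total counts only (-0.60, adjusted p = 0.138). At P0 the libraries parted, with Sox18 at 3.26 CPM in replicate 1 and 1.29 in replicate 2, and the endothelial sum at 21.3 and 10.7 CPM. Without P0 replicate 2 the lower level of Sox17 and Sox18 at P0 than at E12.5 was no longer called (-0.34 and 0.10). Sry passed the filter and was not called from E12.5 to P0 (log2 1.28, adjusted p = 0.218), though it was without P0 replicate 2 (2.42, adjusted p = 0.0428), and Sox14, Sox15 and Sox30 stayed below it, with 1 to 18 counts per library.

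**Figure D5:**
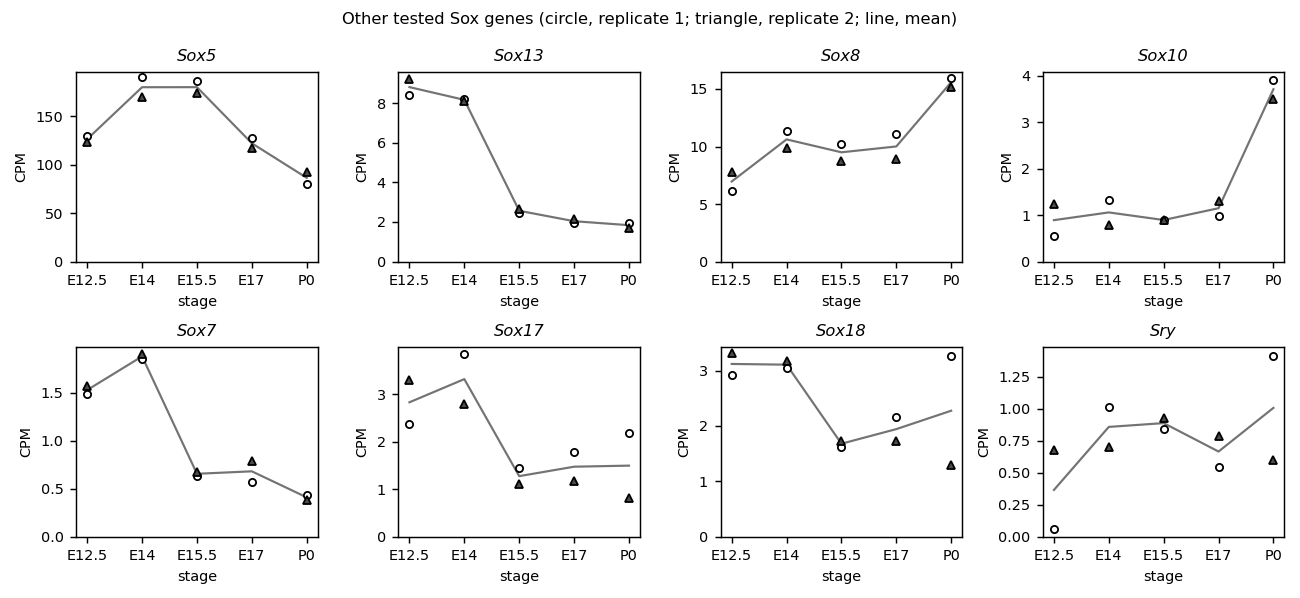
CPM (y axis, from 0) of the 8 other Sox genes that passed the filter against stage (x axis), with replicate 1 as circles, replicate 2 as triangles and the mean as a line. Sox10 stands at 3.92 and 3.51 CPM at P0 against at most 1.33 before, and Sox7, Sox13, Sox17 and Sox18 stand lower at E15.5 than at E14 in both libraries.

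Across the 10 libraries the log2 CPM of the falling Sox genes ran together, which describes shared stages rather than independent samples. Pearson's r was 0.99 between Sox2 and Sox9, 0.98 between Sox2 and Sox3 and 0.81 between Sox4 and Sox11. It was -0.59 between Sox2 and Sox4 and -0.10 between Sox2 and Sox11. Among 9190 genes whose mean count reached 100, the closest in pattern to Sox2 were Id4, an inhibitor of bHLH factors (r = 0.997, 232 CPM at E12.5 and 24.7 at P0), Fgfr3 (0.995) and Zfp36l1 (0.994). Id4 was also the closest to Sox9 (0.995), followed by Pold2 and Tcf7l1, and those closest to Sox3 were Trip6, Stn1 and Hist2h2aa2 (0.997 each).

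Sox6 was closest to E2f7, a cell cycle repressor (r = 0.997, 13.1 CPM at E12.5 and 0.72 at P0), Nup37 (0.993) and Foxm1, a factor of mitotic genes (0.993). Sox4 was closest to Nuak1 (0.987), Smarcd3 (0.979) and Cited2 (0.976). Among those closest to Sox11 were Sipa1l2 (0.975) and Lzts1 (0.960). For Sox12 they were Cmas, Fam214b and 2700081O15Rik (0.971 to 0.974), for Sox1 E2f4, Mpp2 and Lrwd1 (0.983 to 0.987), and for Sox21 Prpf31, Srsf6 and Trabd (0.979 to 0.987). All these values run over the same 5 stages with 2 libraries each.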

How the data were processed

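Ribosome footprints were measured in mouse neocortex at 5 stages, with 2 libraries each. The authors trimmed adapters, collapsed duplicate reads, removed reads of tRNA, rRNA and snoRNA and aligned the rest with STAR to GENCODE M12 (the submitters' notes give version 2.7.0), and deposited whole-number footprint counts per gene, which were used as deposited. The alignment settings let reads map to several places, and how the deposited table counts such reads was not given in the sources used here. Matched RNA-seq was not analysed here.

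Counts were fitted over all 13484 genes with at least 32 footprints in a stage by limma-voom (limma 3.58.1, edgeR 4.0.16, R 4.3.3) with TMM factors, 1 coefficient per stage and Benjamini-Hochberg adjustment, two-sided. A gene was called where its adjusted p was under 0.05 and its log2 change at least 0.32 either way. Symbols came from the reference table (22274 of 22373 identifiers matched). The Sox genes, the gene lists and the rule for names (all Sox genes, the 3 genes most correlated with each, and list genes called) were chosen with earlier results of these data known, and some list and correlated genes are not reported here. The alternatives were scaling by total counts, DESeq2 size factors, edgeR's quasi-likelihood test, DESeq2 1.42.0, no filter, quality weights, a replicate block, only the 2 stages compared and each library left out. No coding lengths were used here, so levels were not put per kilobase. The fit was tested on simulated data with changes planted at E15.5 only and the same spread per gene at every stage. That test did not cover the wider spread between replicates at P0. P-values measure the spread between pooled libraries, 2 per stage. In the main fit each gene had 1 estimate of that spread, shared by all 10 libraries. A p-value between 2 stages thus also carries the spread of the other stages, P0 among them.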

Additional observations from a re-analysis of the deposited data

How the results depend on the processing

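The 31 calls named for the 9 Sox genes, 1 gene in 1 comparison each, kept their direction in all 558 alternative values and stayed called in 491 of them, and 16 calls held in every alternative. The count from E12.5 to E14 was 0 and became 1 with total counts only, 2 with DESeq2 and 2 with sample quality weights. The count from E15.5 to E17 was 1 and became 3 with DESeq2, 6 with sample quality weights, 6 with only the 2 stages compared, and 0 with no filter. With only the 2 stages compared, the count was 0 from E17 to P0 in place of 1, and 2 from E15.5 to P0 in place of 6, where total counts only and sample quality weights each gave 4. With a library left out, the counts ran from 0 to 2 (E12.5 to E14), 3 to 8 (E14 to E15.5), 0 to 3 (E15.5 to E17), 1 to 3 (E17 to P0), 6 to 9 (E12.5 to E15.5), 3 to 7 (E15.5 to P0) and 7 to 8 (E12.5 to P0), and the F test called 8 to 9. Except from E12.5 to P0 and in the F test, the highest count came with a P0 library left out. The cause of these shifts was not tested.

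The main fit did not pair libraries by replicate number. Of 10 correlations between same-numbered deviations, 5 were over 0.1, and they ran from -0.64 to 0.43. Those with E12.5 were all negative (-0.64 to -0.11), while those among the other stages ran from -0.04 to 0.43. Whether replicate numbers mark a shared batch was not tested. With the replicate block the count from E15.5 to E17 was 0 in place of 1 (Sox3, adjusted p = 0.0563), Sox1 was no longer called from E14 to E15.5 or from E12.5 to E15.5 (adjusted p = 0.0684 and 0.0713), and Sox12 was called higher from E12.5 to E15.5. Total counts only turned Sox11 from E12.5 to P0 to 0.34 (adjusted p = 0.0547), where the median of all genes was 0.51. It left all 8 calls from E12.5 to P0, with -0.62 for Sox1, -0.95 for Sox2, -0.86 for Sox6, -0.68 for Sox21, 1.13 for Sox4 and 1.33 for Sox12, and it ended the calls of Sox1, Sox6 and Sox21 from E12.5 to E15.5 (-0.11, -0.23 and -0.51), where Sox12 was called higher. It also ended the calls of Sox1 and Sox9 from E15.5 to P0 (-0.51 and -0.42). Without P0 replicate 2 the Sox11 value from E12.5 to P0 was 0.0026, and over all libraries left out it ran from -0.33 to 0.0026. Each of the 9 genes had at least 104 footprints in every library up to E17, and the thinnest value was 60 footprints of Sox3 in P0 replicate 1.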
